A study of Mus musculus with 9 samples.

Results

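The 9 tumour libraries of the series were ranked by how much transcript of 5 stromal genes they held, and the 3 highest, called stroma-rich here, were set against the 3 lowest, called stroma-poor. The ranking score was the mean log2(CPM + 1), where CPM is the count divided by the library total and scaled to 1000000, of Col1a1 and Col1a2 (the chains of type I collagen), Col3a1 (type III collagen), and Pdgfra and Pdgfrb (the receptors for platelet-derived growth factor carried by fibroblasts and pericytes). The split therefore holds 6 of 9 libraries. It was defined from measured values, whatever hairpin the tumour cells carried, so its differences are a description with no test, and the 5 ranking genes are left out of every count. Matrix genes other than those 5 were among the leading genes of the stroma-rich side: the crosslinking enzyme Lox, the elastic fibre genes Fbln2 and Ltbp2, and the matricellular genes Thbs2, Postn and Tnc were all higher in each stroma-rich library than in any stroma-poor one. Macrophage genes such as Adgre1 and C1qa were higher too, while replication genes of the Mcm family were slightly lower.

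The tumours came from a mouse melanoma line, B16-F10, whose cells were injected under the skin of C57BL/6 mice and taken as tumour tissue on day 16. Before injection they had received a control short hairpin RNA (3 libraries, genotype WT in the labels), a hairpin labelled as the first against Fbxo38 (3 libraries) or a second hairpin against it (3 libraries). The genotype labels of the 6 Fbxo38 hairpin libraries run from FBXO38 to FBXO43, so groups were taken from the titles. All 9 tumours share the cell line, the host strain, the site and the day, and the labels do not say that replicates came from separate animals.

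A solid tumour holds host cells beside the tumour cells. Fibroblasts and pericytes, together called stroma, lay down the extracellular matrix: fibrillar collagens for tensile strength, elastic fibres built on fibrillin microfibrils, and matricellular proteins that bind cells without bearing load. Lysyl oxidases then crosslink collagen and elastin outside the cell. In a library made from whole tissue, a higher share of stromal cells and more stromal RNA per cell cannot be told apart, and this holds for every cell type named here.

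Library totals ran from 15322163 to 17342554 counts, and 14193 genes had enough counts to be tested. Fbxo38, the targeted gene, stood at 35.1, 11.9 and 22.0 CPM in the stroma-rich libraries, at 11.4, 31.3 and 20.9 CPM in the 3 libraries between, and at 20.96, 21.6 and 30.7 CPM in the stroma-poor ones, so the sides overlapped. A principal component analysis set apart a pair of libraries: on its leading component (35.8% of the variance) most libraries fell between -21.5 and 30.7, replicate 1 labelled hairpin 1 reached 60.6, and the value of replicate 2 of hairpin 2 was -54.8. The library labelled hairpin 1, replicate 1, is the top of the ranking and also has the highest share of mitochondrial counts, 6.29% against 2.12% to 4.47% in the others. Differences and list medians that depend on it are given further on. Replicate 2 of hairpin 2 is in neither side of the split.

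The ranking placed no control library on the stroma-rich side. Replicate 1 labelled hairpin 1 had a score of 7.62, replicate 3 of hairpin 2 one of 6.90 and replicate 3 labelled hairpin 1 one of 6.00, and these are the stroma-rich libraries. Replicate 2 labelled hairpin 1 (4.91), control replicate 1 (4.52) and control replicate 3 (4.37) are the stroma-poor ones. Between them lay replicate 2 of hairpin 2 (5.69), control replicate 2 (5.26) and replicate 1 of hairpin 2 (4.98). The score just inside the stroma-rich side was 0.305 above the next, whereas the score just outside the stroma-poor side was only 0.0691 above replicate 2 labelled hairpin 1. Because the sides differ in hairpin label (3 Fbxo38 hairpin libraries against 1 such library and 2 controls), the label and the stromal content cannot be told apart in the split alone, and values within each label are given further on. Throughout, values of the stroma-rich, middle and stroma-poor libraries are listed in order of rank.

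**Figure D1:**
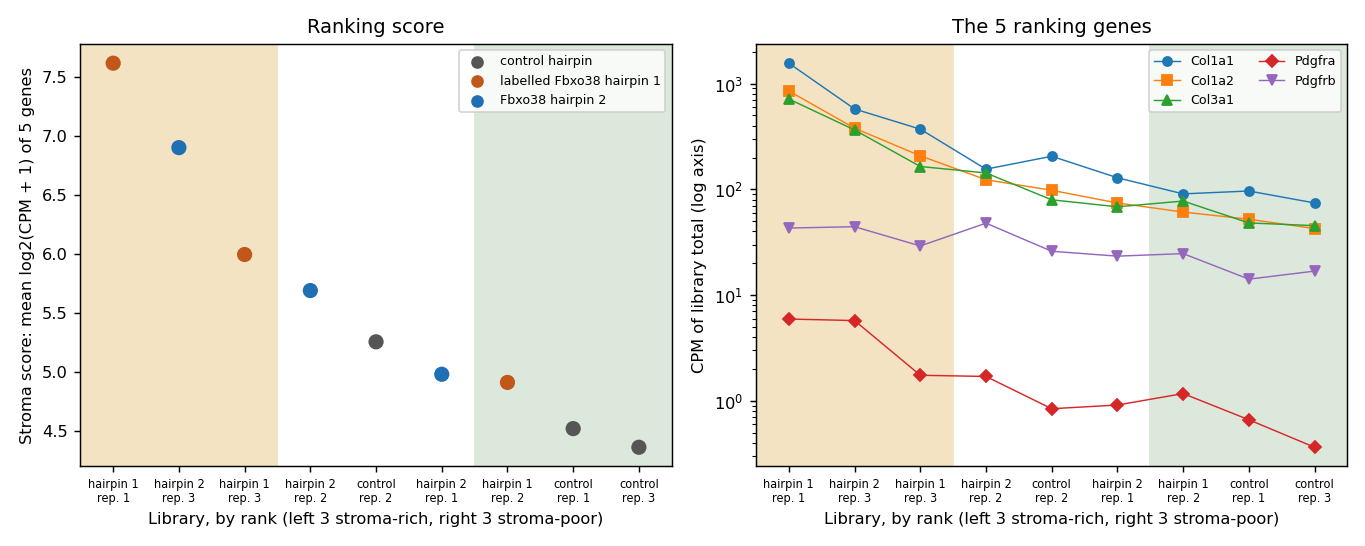
Left, the stroma score (mean log2(CPM + 1) of 5 genes) of each library in rank order, coloured by hairpin label; right, CPM of the 5 ranking genes on a log axis. Shading marks the 3 stroma-rich libraries (7.62 to 6.00) and the 3 stroma-poor ones (4.91 to 4.37); Pdgfrb is highest in replicate 2 of hairpin 2, a middle library.

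Among the ranking genes, Col1a1 stood at 1560, 575.5 and 371 CPM of the library total in the stroma-rich libraries and at 90.6, 96.5 and 74.4 CPM in the stroma-poor ones. Pdgfra stood at 5.94, 5.75 and 1.75 CPM against 1.17, 0.663 and 0.364 CPM. Pdgfrb followed the order less closely: it stood at 43.1, 44.4 and 29.2 CPM on the stroma-rich side, but at 47.9 CPM in replicate 2 of hairpin 2, and at 24.7, 14.2 and 16.9 CPM on the stroma-poor side. These values chose the libraries and are shown only as such.

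All further levels are CPM on library sizes scaled by TMM, a method that trims the most extreme genes before scaling. A difference is the stroma-rich minus the stroma-poor mean of log2(CPM + 1), given with the pooled SD over 3 and 3 libraries. The added 1 CPM makes the difference of genes near or under 1 CPM smaller than the ratio of their levels. A gene is counted as higher when all 3 stroma-rich libraries lay above all 3 stroma-poor ones and the difference was at least 1, which is 2-fold. Of 14188 genes, 187 were higher by this rule (1.32%) and 4 were lower (0.0282%). Without a minimum fold, 906 genes lay wholly above (6.39%) and 774 wholly below (5.46%), so the lean towards higher genes was in the size of the differences. The median difference over all genes was -0.01, and 95% of genes lay between -0.39 and 0.90. Of the 187 higher genes, 25 were at least 4-fold and 4 at least 8-fold higher, and 79 belong to a gene list used here. Replicate 1 labelled hairpin 1 had the highest level for 98 of the 187, replicate 3 of hairpin 2 for 74, replicate 3 labelled hairpin 1 for 3, and a middle library for 12.

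Crosslinking enzymes and elastic fibre genes headed the ranking by size. Of 21 tested genes of this list (of 22 listed), 10 were higher, 11 lay wholly above and none below, and 18 differences were positive, with a median of 1.21. Lox, lysyl oxidase, stood at 87.6, 28.3 and 5.74 CPM in the stroma-rich libraries, at 3.63, 3.13 and 4.39 CPM in the middle ones and at 2.42, 0.417 and 0.357 CPM in the stroma-poor ones, a difference of 3.79 (pooled SD 1.42). Its lowest stroma-rich value was above every other library, but the stroma-rich values themselves ran from 5.74 to 87.6 CPM. Fbln2, encoding fibulin-2, a glycoprotein of elastic fibres and basement membranes, stood at 91.6, 26.2 and 8.96 against 2.35, 1.79 and 0.238 CPM (difference 3.69, pooled SD 1.26). Ltbp2, a fibrillin-binding member of the latent TGF-beta binding protein family, stood at 34.6, 22.6 and 1.89 CPM against 0.470, 0.179 and 0.178 CPM (difference 3.40, pooled SD 1.38). Loxl1, the lysyl oxidase of elastic fibres, stood at 32.5, 28.7 and 8.96 against 4.64, 2.03 and 1.43 CPM. Control replicate 2, a middle library, was at 10.2 CPM for Loxl1 and so above the lowest stroma-rich library. Fbn1, fibrillin-1, the core of the microfibril, had the tightest stroma-poor values, 9.81, 10.49 and 10.46 CPM, against 82.1, 68.6 and 27.7 CPM (difference 2.29, pooled SD 0.58). The microfibril-associated genes Mfap4 and Mfap5 stood at 8.04, 7.49 and 2.21 and at 18.1, 9.31 and 1.83 CPM in the stroma-rich libraries, and no stroma-poor library passed 0.119 CPM for Mfap4 or 0.336 CPM for Mfap5. Eln, tropoelastin itself, stood at 5.03, 14.8 and 3.97 against 2.28, 0.596 and 0.891 CPM, with replicate 2 of hairpin 2 at 7.39 CPM. Other members of the list did not follow. Loxl2 stood at 71.4, 63.0 and 54.9 against 71.5, 40.1 and 27.1 CPM and Loxl3 at 93.2, 83.0 and 78.5 against 76.3, 72.7 and 86.4 CPM, and both overlapped. So did Fbln1, Fbln5 and Emilin1, with negative differences of -0.16, -0.19 and -0.10. The summed level of the list overlapped as well, at 1756, 1919 and 1688 against 1896, 1515 and 1510 CPM. Exons of Lox, Ltbp2, Fbn1, Eln and Mfap4 overlap those of another gene in GENCODE M21, and whether the counting used strand is not given in the sources used here.

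Matricellular proteins and adhesive glycoproteins had a median of 1.33 over 23 tested genes (of 26 found in the files), the highest of the matrix lists with all 6 libraries. Without replicate 1 labelled hairpin 1 it was 0.80, under the 1.15 of the interstitial collagens other than the fibrillar ones and the 0.88 of the elastic fibre list. Of the 23 genes 9 were higher, 13 lay wholly above, none below, and 21 differences were positive. Thbs2, thrombospondin-2, stood at 82.6, 29.1 and 12.4 CPM in the stroma-rich libraries, at 10.3, 6.72 and 3.38 CPM in the middle and at 4.03, 2.03 and 2.26 CPM in the stroma-poor ones (difference 3.13, pooled SD 0.98). Postn, periostin, a matrix protein of fibroblasts that binds collagen and integrins, stood at 102, 54.4 and 25.5, then 20.97, 16.4 and 14.7 and then 5.04, 8.05 and 6.78 CPM (difference 2.82, pooled SD 0.72), and each middle library lay between the sides. Tnc, tenascin-C, an anti-adhesive glycoprotein of healing wounds and tumours, stood at 246, 58.0 and 17.2 against 8.06, 14.2 and 8.02 CPM (difference 2.58, pooled SD 1.37). Its lowest stroma-rich value was close to the highest stroma-poor one, control replicate 2 was at 36.4 CPM, and without replicate 1 labelled hairpin 1 the difference was 1.61. Fn1, fibronectin, stood at 614, 556 and 219 against 168, 183 and 98.3 CPM, and Thbs1, thrombospondin-1, at 359, 109 and 73.7 against 47.2, 53.9 and 63.9 CPM; the Thbs1 difference of 1.37 was 0.71 without replicate 1 labelled hairpin 1. Wisp1, a CCN family gene, stood at 12.5, 8.46 and 2.96 against 1.48, 2.62 and 1.49 CPM, whereas its relatives Ctgf (149, 44.2 and 30.9 against 17.4, 20.98 and 32.5 CPM) and Cyr61 (175, 29.1 and 57.5 against 46.8, 38.6 and 47.4 CPM) overlapped. Aspn, asporin, stood at 10.8, 9.55 and 4.29 against 2.08, 1.07 and 2.08 CPM. Sparc, which binds collagen and chaperones it out of the cell, lay wholly above at 1209, 889 and 669 against 475, 514 and 442 CPM but by less than 2-fold (difference 0.91). Sparcl1, its relative, did not separate the sides (302, 407 and 348 against 368, 270.3 and 384 CPM).

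The 3 leading matricellular genes are shown by the 250 bases before their start sites, because these genes differ together and share a role, and the promoter is where a common short motif could be looked for. The sequences are from RefSeq on GRCm38.p6, read 5′ to 3′ on the gene's strand, and hold no exon annotated in GENCODE M21. Capitals mark matches to a TATA box (TATAAA, gene strand only), a CCAAT box (CCAAT, either strand) or a GC box (GGGCGG, either strand).
Thbs2, chr17:14694263-14694512, minus strand: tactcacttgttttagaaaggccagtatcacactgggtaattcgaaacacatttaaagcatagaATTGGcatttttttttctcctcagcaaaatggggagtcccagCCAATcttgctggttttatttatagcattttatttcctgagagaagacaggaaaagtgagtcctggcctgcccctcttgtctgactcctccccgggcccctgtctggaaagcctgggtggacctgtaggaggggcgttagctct
Postn, chr3:54360857-54361106, plus strand: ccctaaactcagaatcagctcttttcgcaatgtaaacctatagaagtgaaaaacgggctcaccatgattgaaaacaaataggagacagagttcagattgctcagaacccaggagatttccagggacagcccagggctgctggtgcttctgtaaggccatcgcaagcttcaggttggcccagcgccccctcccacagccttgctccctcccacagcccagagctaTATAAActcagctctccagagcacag
Tnc, chr4:64047016-64047265, minus strand: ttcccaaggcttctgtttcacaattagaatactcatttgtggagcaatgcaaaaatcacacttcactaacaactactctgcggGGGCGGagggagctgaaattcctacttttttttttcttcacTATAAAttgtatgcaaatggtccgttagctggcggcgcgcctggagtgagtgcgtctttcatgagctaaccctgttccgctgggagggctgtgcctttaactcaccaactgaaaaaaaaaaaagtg
The Thbs2 window holds CCAAT matches starting 186 and 144 bases before the start site, the Postn window shown a TATA match 26 bases before it, and the Tnc window a TATA match 126 and a GC match 167 bases before it. A further RefSeq window of Postn, chr3:54359017-54359266 on the plus strand, holds no match and is not shown. No motif of the 3 kinds is in all 3 windows shown. Of the 187 higher genes, 126 have at least 1 window in the RefSeq table, 161 windows in all. A TATAAA match was in 9.32% of them, in 3.86% of 13134 windows of tested genes and in 7.59% of all 32851 windows. CCAAT was in 29.2% (35.2% for tested genes, 33.8% for all), GGGCGG in 50.3% (56.7% and 32.7%), the AP-1 motif TGANTCA on either strand in 7.45% (4.39% and 6.75%) and the TEAD motif GGAATG on either strand in 16.8% (10.8% and 12.6%). These shares describe letters in a window, with no test, and windows of 1 gene can overlap.

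**Figure D2:**
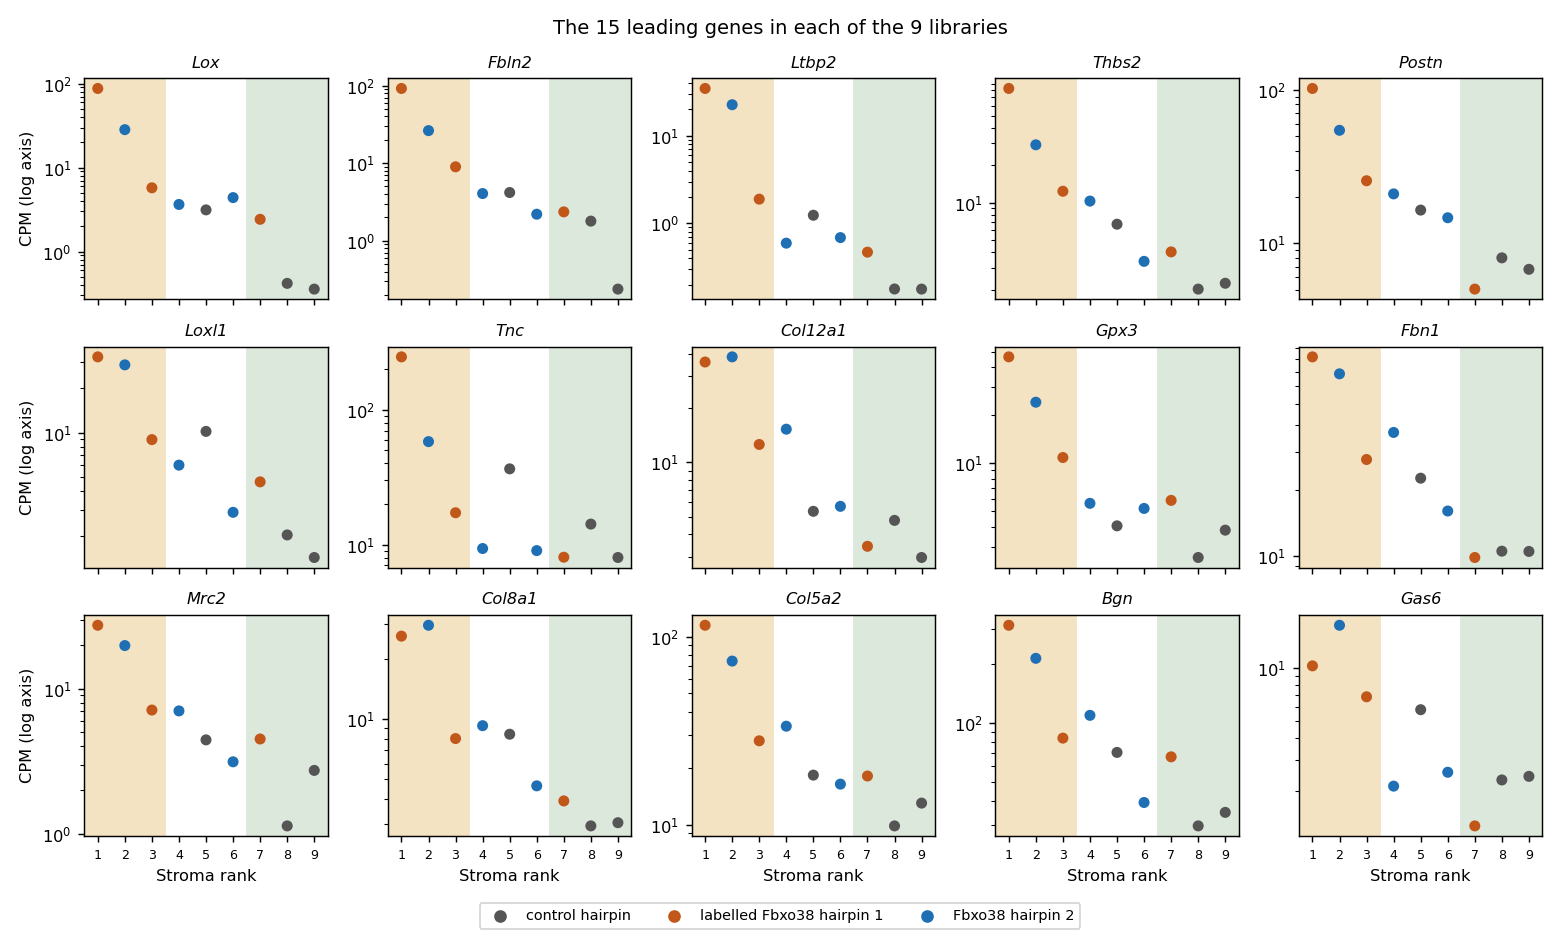
Level (CPM, TMM-scaled, log axis) of the 15 genes with the largest positive difference among genes with a mean of at least 5 CPM, 1 panel each, in the 9 libraries by stroma rank; points are libraries, coloured by hairpin label, and shading marks the stroma-rich (left) and stroma-poor (right) sides. All 15 panels show the sides apart, and ranks 1 and 2 stand above rank 3.

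Collagens other than the ranking genes were higher in both the fibrillar and the non-fibrillar families. Of 7 tested fibrillar collagen genes 2 were higher, 5 lay wholly above, none below, and all 7 differences were positive (median 0.73). The 2 were the chains of type V collagen, which is built into type I fibrils: Col5a2 stood at 115, 74.3 and 27.9 against 18.1, 9.84 and 13.0 CPM (difference 2.15, pooled SD 0.78) and Col5a1 at 164, 89.5 and 64.1 against 27.8, 27.0 and 20.6 CPM (difference 1.94, pooled SD 0.51). Of 11 other interstitial collagen genes 7 were higher, 8 lay wholly above and none below (median 1.24). Col12a1, whose product coats fibrils, stood at 35.9, 38.3 and 12.6 against 3.43, 4.77 and 2.97 CPM, and Col8a1, a short-chain collagen of vessels, at 26.1, 29.6 and 8.01 against 3.90, 2.92 and 3.03 CPM. Replicate 2 of hairpin 2 lay above the third stroma-rich library for both, at 15.2 and 9.29 CPM. The chains of type VI collagen, a beaded filament around cells, differed alike: Col6a1 stood at 114, 104 and 64.8 against 60.1, 24.2 and 32.6 CPM, Col6a2 at 98.8, 86.8 and 63.0 against 50.3, 26.2 and 29.3 CPM and Col6a3 at 119, 102 and 75.9 against 42.4, 33.4 and 39.5 CPM. Their differences were 1.31, 1.25 and 1.32, and replicate 2 of hairpin 2 reached 107, 102 and 137 CPM. Col14a1 stood at 7.57, 16.4 and 4.16 against 2.22, 1.61 and 1.66 CPM. Col10a1 (1.54, 1.58 and 1.64 against 2.62, 2.56 and 0.535 CPM) and Col16a1 (78.8, 69.9 and 61.5 against 74.6, 48.5 and 66.3 CPM) overlapped.

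The enzymes that fold and modify collagen inside the cell mostly did not follow. Of 27 tested genes 3 were higher (P4ha3, P3h4 and Adamts2), 4 lay wholly above and none below, and the median was 0.12. Serpinh1, the collagen chaperone HSP47, stood at 1255, 1362 and 1421 against 1293, 1319 and 1178 CPM, and P4ha1, a prolyl 4-hydroxylase subunit, at 247, 227 and 263 against 284, 233 and 182 CPM. Plod2, a lysyl hydroxylase, stood at 137, 144 and 158 against 174, 139 and 129 CPM, again overlapping. P4ha3, another subunit gene of the prolyl 4-hydroxylases, stood at 5.80, 2.92 and 1.07 against 0.537, 0.536 and 0.119 CPM (difference 1.46, pooled SD 0.64). P3h4, a partner of the lysyl hydroxylase LH1, stood at 3.02, 2.56 and 2.96 against 0.537, 0.596 and 1.25 CPM.

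Some small leucine-rich proteoglycans, which sit on collagen fibrils, separated the sides, while the cell-surface proteoglycans named here overlapped. Of 17 tested proteoglycan genes (of 25 listed) 5 were higher, the same 5 lay wholly above and none below (median 0.35). The other 12 overlapped, with differences down to -1.14. Kera, another small leucine-rich member, was at 0 counts in all 9 libraries. Bgn, biglycan, stood at 315, 214 and 83.6 against 67.1, 29.8 and 34.9 CPM (difference 2.08, pooled SD 0.81). Dcn, decorin, was at 14.1, 15.03 and 2.21 against 0.806, 0.238 and 0.713 CPM, Lum, lumican, at 1.36, 3.53 and 0.568 against 0.336, 0 and 0.416 CPM, and Fmod, fibromodulin, at 1.48, 9.01 and 1.58 against 0, 0.238 and 0.119 CPM. Fmod was highest in replicate 3 of hairpin 2, and its difference was 1.18 without that library against 1.84 with it. Vcan, the large proteoglycan versican, stood at 9.82, 6.94 and 4.73 against 2.08, 2.44 and 1.31 CPM. Sdc4, the cell-surface proteoglycan syndecan-4, stood at 69.8, 47.5 and 57.0 against 68.1, 49.1 and 57.2 CPM. Sdc3, Gpc1 and Sdc1, also of the cell surface, overlapped with differences of 0.59, 0.14 and -0.04.

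Basement membrane genes were higher by less, in 9 of 18 tested genes wholly above but in 1 (Pxdn, peroxidasin) by at least 2-fold, with none below and a median of 0.40. Col4a1 stood at 425, 373 and 507 against 312, 325 and 333 CPM and its neighbour Col4a2, whose exons overlap it, at 326, 278 and 348 against 266, 225 and 244 CPM. Both were highest in replicate 2 of hairpin 2, at 769 and 539 CPM. Nid1, nidogen-1, stood at 86.7, 82.2 and 69.9 against 41.9, 45.5 and 48.7 CPM, and Col15a1, type XV collagen of the vessel wall zone, at 78.3, 63.4 and 59.2 against 30.2, 37.9 and 35.1 CPM. The laminin chains Lama4 (97.8, 88.6 and 104 against 101, 102 and 99.0 CPM) and Lamc1 (203, 276 and 281 against 218, 259 and 239.8 CPM) overlapped.

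Of 24 matrix protease genes 3 were higher (Mmp2, Mmp9 and Htra3), 9 lay wholly above and none below (median 0.77), and 21 differences were positive. The negative ones included Adamts1 (-0.23) and Adam12 (-0.93, and -0.32 without replicate 1 labelled hairpin 1), which both overlapped. The summed level of the list overlapped too, at 766, 664 and 834 against 779, 770 and 675 CPM. The gelatinase gene Mmp2 stood at 28.1, 23.9 and 13.1 against 12.8, 8.58 and 6.54 CPM. Mmp9, the other gelatinase, stood at 17.5, 3.83 and 0.883 against 0.874, 0.298 and 0.178 CPM, and its difference of 1.96 was 1.09 without replicate 1 labelled hairpin 1. Mmp14, the membrane-bound activator of Mmp2, overlapped at 275, 216 and 243 against 227, 233 and 229.6 CPM. Of 9 protease inhibitor genes 3 were higher, 4 lay wholly above and none below (median 0.82). Serpinf1, pigment epithelium-derived factor, stood at 86.6, 38.7 and 29.7 against 18.8, 17.6 and 24.2 CPM. Timp3 lay wholly above by less than 2-fold (21, 28.4 and 15.1 against 13.2, 12.9 and 8.68 CPM), with 51.5 CPM in replicate 2 of hairpin 2, and Timp2 overlapped (224, 302 and 225 against 297, 236 and 234 CPM). Over the 9 matrix lists together, 157 tested genes held 43 higher ones (27.4%, against 1.32% of all genes), 68 lay wholly above, none below, 130 differences were positive, and the median was 0.59. Some of these genes were in view when the lists were chosen, so the share is a description. Low genes such as Mfap4 had enough counts to be tested only through the stroma-rich libraries, which fixes their direction.

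Fibroblast identity genes, which bear on whether the ranking reads fibroblasts rather than collagen alone, were higher in 9 of 21 tested genes (of 29 listed). They lay wholly above in 12, below in none, and had a median of 0.87. Over all genes 1.32% were higher and 6.39% lay wholly above. Prrx1, a transcription factor of mesenchyme, stood at 14.96, 7.67 and 5.80 against 2.15, 2.21 and 1.78 CPM, and Thy1 at 43.6, 23.4 and 15.3 against 7.79, 10.4 and 9.92 CPM. Fap, fibroblast activation protein, was low throughout, at 1.54, 1.52 and 0.820 against 0.605, 0.179 and 0.238 CPM, and lay wholly above by less than 2-fold. Sfrp2, a secreted Wnt modulator, stood at 5.68, 6.39 and 1.14 CPM in the stroma-rich libraries and at 0 counts in each stroma-poor one, and Sfrp1 at 0.651, 5.23 and 0.883 CPM and again at 0 counts. Such low genes can have enough counts to be tested only through the stroma-rich libraries, which fixes their direction among the 9. Pi16, a marker of an adventitial fibroblast class, stood at 3.31, 1.28 and 0.189 against 0, 0.0596 and 0.0594 CPM. Lrrc15, a marker of TGF-beta-driven tumour fibroblasts, was nearly all in 1 library, at 37.5, 1.34 and 2.59 against 0.403, 0 and 0.119 CPM. Its difference of 2.56 was 1.32 without replicate 1 labelled hairpin 1. The other 9 tested genes overlapped. Vim, Ddr2, Pdpn and Cd34 were among them, which tumour or endothelial cells can express too. Vim, for example, stood at 2276, 2189 and 1759 against 1871, 1785 and 1627 CPM. Gsn (difference 0.13) and Fbln1, the only member with a negative difference (-0.16), overlapped as well. Tcf21 was at 0 counts in all 9 libraries.

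Contractile and vessel wall genes differed less than fibroblast genes. Of 14 myofibroblast and smooth muscle genes none was higher by 2-fold, 4 lay wholly above and 1 (Smtn) below, with a median of 0.36 that was 0.13 without replicate 1 labelled hairpin 1. Over all genes 6.39% lay wholly above and 5.46% wholly below. Acta2, smooth muscle actin, stood at 138, 31.5 and 57.0 against 31.4, 33.6 and 33.2 CPM and overlapped, since the second-ranked library lay within the stroma-poor range. Myl9 stood at 22.4, 9.92 and 12.5 against 6.85, 7.87 and 6.83 CPM, and Myh11, a marker of mature smooth muscle, overlapped at 5.03, 4.38 and 6.50 against 4.30, 4.29 and 6.48 CPM. Of 12 pericyte genes 1 was higher (Heyl, a Notch target, 3.79, 5.84 and 4.60 against 1.75, 1.97 and 1.01 CPM), 4 lay wholly above, and all 12 differences were positive (median 0.55). Notch3, the Notch receptor of mural cells, stood at 15.8, 21.2 and 24.5 against 15.2, 8.58 and 12.3 CPM, with 62.1 CPM in replicate 2 of hairpin 2, and Rgs5 at 39.9, 34.7 and 55.6 against 33.4, 22.0 and 40.3 CPM with 112 CPM there. Of 24 endothelial genes 1 was higher (Vwf, von Willebrand factor, 39.2, 41.1 and 26.6 against 20.1, 16.3 and 11.8 CPM), 10 lay wholly above and none below, with a median of 0.39. Cdh5, the endothelial cadherin, stood at 76.9, 58.5 and 57.4 against 40.9, 44.3 and 38.9 CPM. Eng, endoglin, overlapped at 426, 430.1 and 368 against 416, 428 and 460.1 CPM, and its exons overlap Fpgs.

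In the growth factor pathways of stroma some members lay apart and others overlapped. Over all genes 1.32% were higher and 6.39% lay wholly above. Of 26 TGF-beta ligands, receptors and targets 5 were higher, 10 lay wholly above and none below, and the median was 0.27. The ligand gene Tgfb1 (101, 62.6 and 45.9 against 62.8, 41.5 and 60.7 CPM) and the receptor gene Tgfbr2 (61.9, 86.8 and 62.9 against 70.5, 59.4 and 67.0 CPM) overlapped. Lrrc32, which holds latent TGF-beta on the cell surface, stood at 23.1, 11.7 and 14.1 against 4.91, 4.17 and 6.42 CPM. Among targets, Pmepa1 stood at 34.7, 28.5 and 16.3 against 11.3, 9.96 and 8.91 CPM and Id3 at 14.6, 11.02 and 8.89 against 8.40, 3.76 and 3.68 CPM, whereas Smad7 overlapped (14.1, 7.06 and 5.42 against 5.24, 7.09 and 5.94 CPM). Inhba, the activin A subunit, stood at 15.1, 1.40 and 0.820 against 0.605, 0.536 and 0.654 CPM, and its difference of 1.37 was 0.39 without replicate 1 labelled hairpin 1. Of 13 tested BMP and Wnt genes (of 29 listed) 4 were higher, 6 lay wholly above and none below (median 0.45), among them the ligand gene Wnt5a at 6.27, 2.495 and 1.14 against 0.739, 0.477 and 0.0594 CPM. None of 21 growth factor and IGF genes was higher by 2-fold, and 5 lay wholly above, including Igf1 at 3.02, 4.32 and 1.64 against 1.28, 0.656 and 1.19 CPM and Pdgfb, the ligand of the ranking gene Pdgfrb, at 25.1, 17.0 and 19.9 against 13.4, 15.4 and 13.4 CPM. Of 8 transcription factors of the epithelial-to-mesenchymal transition, Prrx1 and Zeb1 were higher; Zeb1 stood at 10.3, 7.12 and 4.86 against 3.56, 2.15 and 3.15 CPM, while its relative Zeb2 overlapped (85.2, 76.1 and 61.4 against 85.3, 81.9 and 92.5 CPM). Snai1 overlapped by 1 library, at 4.85, 3.17 and 2.52 against 2.62, 0.894 and 0.475 CPM.

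Secreted signals of inflammatory fibroblasts gave a median of 0.89, with all 18 differences positive, 4 genes higher and 5 wholly above. Leaving out replicate 1 labelled hairpin 1 gave a median of 0.41, and leaving out replicate 3 of that label gave 1.36. Cxcl12, a chemokine of fibroblasts and pericytes, stood at 29.9, 6.45 and 7.63 against 2.96, 6.26 and 6.299 CPM, so that its second-ranked library was barely apart from the stroma-poor ones. Ptgs2, encoding cyclooxygenase-2, was high in 1 library, at 27.7, 1.76 and 0.694 against 0.537, 0.298 and 0.178 CPM, with a difference of 1.95 that was 0.70 without replicate 1 labelled hairpin 1. Ccl8 stood at 8.87, 6.88 and 4.16 against 1.95, 1.91 and 3.09 CPM and at 11.2 CPM in control replicate 2. Ccl2 (26.1, 8.88 and 3.85 against 9.88, 4.29 and 5.41 CPM) and complement C3 (13.3, 28.9 and 5.36 against 13.7, 2.98 and 1.66 CPM) overlapped. Integrin genes had a median of 0.31 over 16; Itga11, a collagen receptor of fibroblasts, stood at 2.54, 2.495 and 0.631 against 0.269, 0.238 and 0.297 CPM, and Itgb1 overlapped (576, 633 and 594 against 639.6, 593 and 500 CPM). Outside the lists, the leading genes Mrc2, a receptor that takes up collagen, Gpx3, a secreted glutathione peroxidase, and Gas6, a ligand of the TAM receptors, stood at 27.4, 19.8 and 7.13, at 46.4, 24.1 and 10.8 and at 10.3, 17.5 and 6.87 CPM in the stroma-rich libraries. Their stroma-poor values were 4.50, 1.13 and 2.73, 5.84, 2.56 and 3.80 and 1.28, 2.33 and 2.44 CPM.

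Macrophage genes separated the sides about as often as fibroblast genes did. Of 17 tested genes 7 were higher, 10 lay wholly above and none below, with 16 positive differences and a median of 1.17. Adgre1, encoding F4/80, stood at 19.6, 26.1 and 10.3 CPM in the stroma-rich libraries, at 2.68, 15.7 and 8.84 CPM in the middle ones and at 3.63, 5.78 and 5.29 CPM in the stroma-poor ones. C1qa, a chain of complement C1q, stood at 101, 116 and 44.3, then 5.24, 87.7 and 35.3, then 28.1, 35.6 and 34.0 CPM. Lyz2, lysozyme, stood at 142, 149.9 and 61.5, then 12.3, 90.3 and 50.1, then 25.3, 49.2 and 32.7 CPM, and Trem2, a lipid-sensing receptor of tissue macrophages, at 14.8, 15.03 and 4.67, then 1.13, 8.36 and 4.08, then 3.76, 3.16 and 3.03 CPM. Csf1r, the receptor for the macrophage growth factor, followed at 35.7, 53.1 and 18.7 against 15.5, 15.3 and 11.2 CPM. The mannose receptor gene Mrc1 (20.8, 22.7 and 10.3 against 6.79, 13.5 and 9.69 CPM), Cd68 (54.6, 64.1 and 21.6 against 28.8, 17.8 and 18.7 CPM) and Apoe (1416, 1490 and 1452 against 1890, 1214 and 1491 CPM) overlapped. Apoe carries most of the list's counts, so the summed level overlapped as well, at 2103, 2251 and 1737 against 2104, 1460 and 1687 CPM. Of 12 pan-leukocyte genes 1 was higher (Laptm5, 66.5, 78.1 and 30.0 against 29.7, 23.6 and 16.7 CPM) and 1 wholly above, with 11 positive and a median of 0.80; Ptprc, encoding CD45, overlapped at 18.0, 16.3 and 4.54 against 6.45, 5.42 and 4.93 CPM.

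The middle libraries, which the split did not use, held matrix and macrophage genes at unlike levels. Replicate 2 of hairpin 2 was above all stroma-poor libraries in 32 of the 43 higher matrix genes, but below all of them in 8 of the 8 higher macrophage and leukocyte genes. C1qa was at 5.24 CPM there, and Lyz2 at 12.3 CPM. Control replicate 2 was above all stroma-poor libraries in 30 of the 43 matrix genes and in 8 of the 8 macrophage and leukocyte genes, with C1qa at 87.7 CPM. Replicate 1 of hairpin 2 was above in 20 of 43 and in 4 of 8. These genes were chosen for low stroma-poor values, which favours a middle library lying above them. The share over all genes was not taken, so nothing is read from the counts above. Against the mean of the 9 libraries, the 43 matrix genes had a median log2 level of 0.16 in replicate 2 of hairpin 2 and the 8 macrophage and leukocyte genes one of -1.86. In control replicate 2 these medians were -0.21 and 0.91. Replicate 2 of hairpin 2 also had a summed level of 21560 CPM for 8 erythroid genes, against 422.5 to 4979 CPM in the other libraries, and the part of that difference in these values was not tested.

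**Figure D3:**
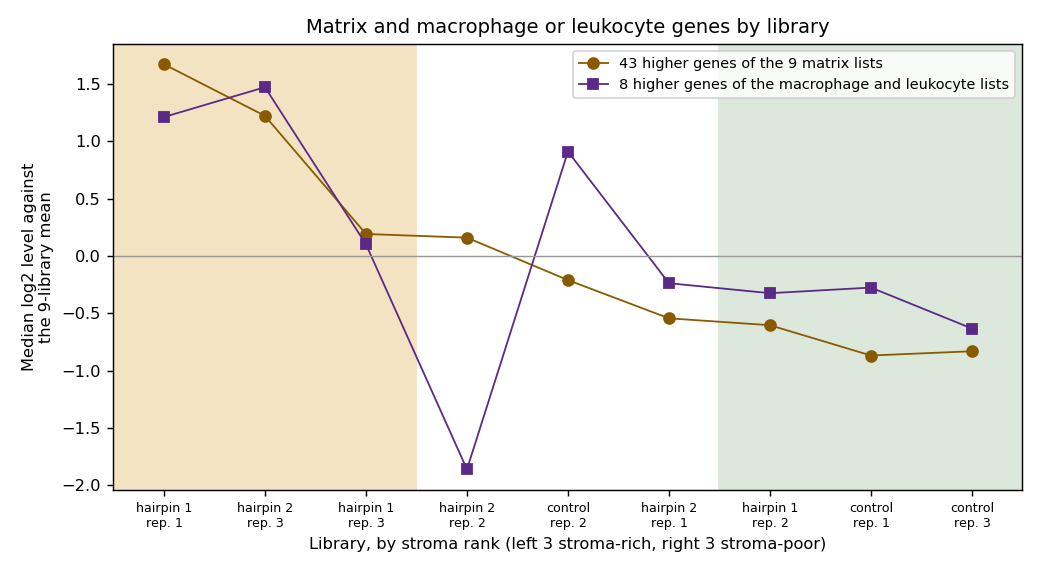
Median log2 level against the mean of 9 libraries, in rank order, for the 43 higher genes of the 9 matrix lists (circles) and the 8 higher genes of the macrophage and leukocyte lists (squares); lines join libraries only to guide the eye. In replicate 2 of hairpin 2 the medians are 0.16 and -1.86, in control replicate 2 they are -0.21 and 0.91.

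Among markers of other tissue around a tumour, keratinocyte and muscle genes did not separate the sides as lists, whereas adipocyte genes did. Of 18 keratinocyte genes 10 were at 0 counts in all 9 libraries (Krt5, Krt14, Krt1, Krt15, Krt17, Krt79, Dsg1a, Dsc3, Lor and Trp63). Of its 5 tested genes, which other cells can express, Perp was higher (9.82, 3.35 and 6.50 against 1.61, 1.01 and 1.19 CPM) and Sfn lay wholly below (3.43, 3.53 and 3.60 against 4.37, 3.93 and 4.70 CPM). Skeletal muscle genes had a median of -0.14 over 10 tested (of 20 listed), with none higher, and their summed level overlapped at 62.7, 50.1 and 62.1 against 75.5, 71.4 and 55.9 CPM. All 4 tested adipocyte genes (of 12 listed) lay wholly above, with a median of 0.80, near the 0.87 of the fibroblast list. Endothelial cells or macrophages can express each of the 4. Cd36, a fatty acid receptor, was higher at 18.7, 38.2 and 13.2 against 11.2, 8.64 and 8.02 CPM, a difference of 1.12 that was 0.71 without replicate 3 of hairpin 2. Fabp4 (33.1, 26.1 and 21.6 against 15.4, 16.4 and 16.1 CPM), Lpl (12.9, 33.5 and 11.98 against 9.74, 7.51 and 9.69 CPM) and Pparg (1.42, 2.56 and 1.70 against 1.41, 1.07 and 1.07 CPM) lay above by less than 2-fold. Adipoq and Plin1, the defining markers, did not pass 0.457 and 0.183 CPM in any library. The part of adipose tissue in these values was not tested. L1cam of the nerve sheath list was higher, at 9.40, 7.55 and 3.47 against 1.95, 1.97 and 1.72 CPM. Cilp, a cartilage and fibroblast matrix gene, stood at 3.61, 21.9 and 2.40 CPM in the stroma-rich libraries and at or under 0.336 CPM in the stroma-poor ones.

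The tumour cells' own lineage genes did not separate the sides. None of 16 melanocyte and pigment genes lay wholly above or below, 10 differences were positive, and the median was 0.02. Over all genes only 6.39% lay wholly above and 5.46% wholly below, so nothing is read from the count alone. Tyrp1, a melanin synthesis enzyme, stood at 7376, 8513 and 6711 against 8235, 7190 and 7508 CPM, Dct at 6556, 6649 and 6655 against 7928, 6601 and 7407 CPM, and Mitf, the lineage transcription factor, at 528, 888 and 1150 against 753, 721 and 738 CPM. Their summed level was 31490, 35100 and 27270 CPM against 33790, 27370 and 29990 CPM. These pigment genes were present in every library, as a melanoma label calls for.

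Few genes of the other leukocyte lists were higher by 2-fold. Over all genes 1.32% were higher, 6.39% lay wholly above and 5.46% wholly below. Of 11 T and NK cell genes none was higher by 2-fold and 2 lay wholly above, Cd3d (1.48, 1.58 and 0.757 against 0.403, 0.238 and 0.416 CPM) and Trac (4.32, 1.70 and 1.26 against 0.874, 1.07 and 0.772 CPM), with all 11 differences positive and a median of 0.52. Gzmb, granzyme B, overlapped (9.58, 4.56 and 0.820 against 6.38, 2.15 and 1.37 CPM). None of 7 dendritic cell genes lay wholly above or below (median 0.04), and with so few genes nothing is read from that count. Of 7 tested neutrophil and monocyte genes 1 was higher, Vcan, which fibroblasts express too and which also stands in the proteoglycan list. Csf3r also lay wholly above, by less than 2-fold (difference 0.85). All 7 differences were positive, with a median of 0.80 that was 0.40 without replicate 1 labelled hairpin 1. S100a8 was low, at 1.18, 0.183 and 0.189 against 0, 0.536 and 0.119 CPM. Erythroid genes had a median of -0.90 with all 8 differences negative and all 8 overlapping. Their median was 0.73 when the 4 highest and 4 lowest libraries were compared, which takes in replicate 2 of hairpin 2.

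Genes lower on the stroma-rich side were few and differed by less. By the 2-fold rule there were 4: Btn2a2, Gm6087, Lmtk3 and Fam19a5, the last 3 of which fall under 5 CPM on average and are named after their values were seen. Btn2a2, a butyrophilin of antigen-presenting cells, stood at 1.60, 5.72 and 8.96 CPM in the stroma-rich libraries, at 9.18, 6.27 and 15.9 CPM in the middle and at 18.9, 14.5 and 9.75 CPM in the stroma-poor ones (difference -1.42, pooled SD 0.77), and without replicate 1 labelled hairpin 1 the difference was -0.86. Gpr37, an orphan G protein-coupled receptor, stood at 14.1, 22.2 and 25.5 against 51.3, 38.7 and 32.1 CPM (difference -0.96). The others of the leading 15 lower genes had differences of -0.87 to -0.68, under 2-fold. Among them, Lmo1, a LIM-domain cofactor, stood at 36.2, 29.8 and 55.1 against 74.2, 66.7 and 57.0 CPM, Pcx, pyruvate carboxylase, at 12.7, 18.3 and 18.0 against 27.7, 19.8 and 34.5 CPM, and Map2k6, a kinase upstream of p38, at 6.80, 9.68 and 8.83 against 12.4, 14.1 and 16.9 CPM. Cxcr3, a chemokine receptor, stood at 5.91, 5.60 and 8.77 against 9.21, 12.2 and 12.8 CPM, Hoxa11 at 6.15, 2.74 and 8.39 against 8.87, 9.24 and 10.4 CPM, Efna4 at 7.21, 10.6 and 12.2 against 16.4, 17.5 and 15.2 CPM and Fbxl7, an F-box gene, at 22.2, 22.4 and 33.6 against 41.8, 37.9 and 45.3 CPM. Gm10031, D130058E05Rik, Inka1, Rgma, Odf3l1 and Abcb9 complete the 15, and none of the 15 is in a matrix list.

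Cell cycle genes had slightly negative medians as lists. All 20 S phase differences were negative, 7 genes lay wholly below (against 5.46% of all genes) and none above, and the median was -0.24. Mcm5, Mcm6 and Mcm7, subunits of the replicative helicase, stood at 224, 238 and 254 against 274, 315 and 314 CPM, at 261, 297 and 306 against 338, 389 and 363 CPM and at 185, 177 and 178 against 209.7, 229 and 228 CPM. Chaf1b, a subunit of chromatin assembly factor 1, stood at 92.8, 68.5 and 82.8 against 105, 113 and 113 CPM, and Tyms, thymidylate synthase, at 69.5, 68.4 and 75.7 against 76.8, 90.1 and 86.5 CPM. Pcna overlapped (268, 294 and 279 against 291, 303 and 310.4 CPM). The summed S phase level was 2801, 2986 and 3140 CPM against 3273, 3702 and 3673 CPM, apart but by much less than 2-fold. Of 20 G2 and M phase genes 18 differences were negative and 3 lay wholly below, with a median of -0.19: Plk1 stood at 115, 114 and 126 against 136, 162 and 168 CPM, and Bub1b and Cdc20 were the others. The summed G2 and M phase level overlapped, at 2171, 2421 and 2504 against 2380, 2731 and 2916 CPM. Mki67, the proliferation marker, overlapped at 155, 204 and 266 against 191, 256 and 261 CPM. As 2 of the 3 stroma-poor libraries are controls and no stroma-rich one is, the hairpin label moves with these values.

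Interferon, antigen presentation and metabolic lists mostly overlapped between the sides. Of 23 MHC class I and interferon gamma genes none lay wholly above or below, with 22 positive and a median of 0.28, and H2-D1 stood at 1465, 1203 and 817 against 1119, 983 and 885 CPM. Leaving out replicate 1 labelled hairpin 1 gave a median of 0.03, leaving out replicate 3 of that label gave 0.69, and the 4 highest against the 4 lowest libraries gave -0.34. Of 22 type I interferon response genes 1, Mx2, lay wholly below (2.48, 2.19 and 1.77 against 4.77, 4.65 and 4.16 CPM), and the median was 0.21. MHC class II genes had a median of 0.15 over 7, and Cd74 stood at 442, 436 and 180.4 against 442, 300 and 204 CPM. Glycolysis and hypoxia genes had a median of -0.02 over 22; Eno1, enolase, lay wholly below at 8951, 8270 and 8484 against 10290, 9261 and 9049 CPM (with the libraries ranked by TMM-scaled CPM its difference was no longer negative), and Hk2, hexokinase 2, wholly above at 474, 441 and 462 against 415, 346 and 318 CPM. Mx2, Eno1 and Hk2 are single genes in lists of 22, while 5.46% of all genes lay wholly below and 6.39% wholly above. Nothing is read from them. The medians were 0.01 over 19 oxidative phosphorylation genes, 0.08 over 22 ribosomal protein genes and 0.16 over 16 endoplasmic reticulum stress genes.

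**Figure D4:**
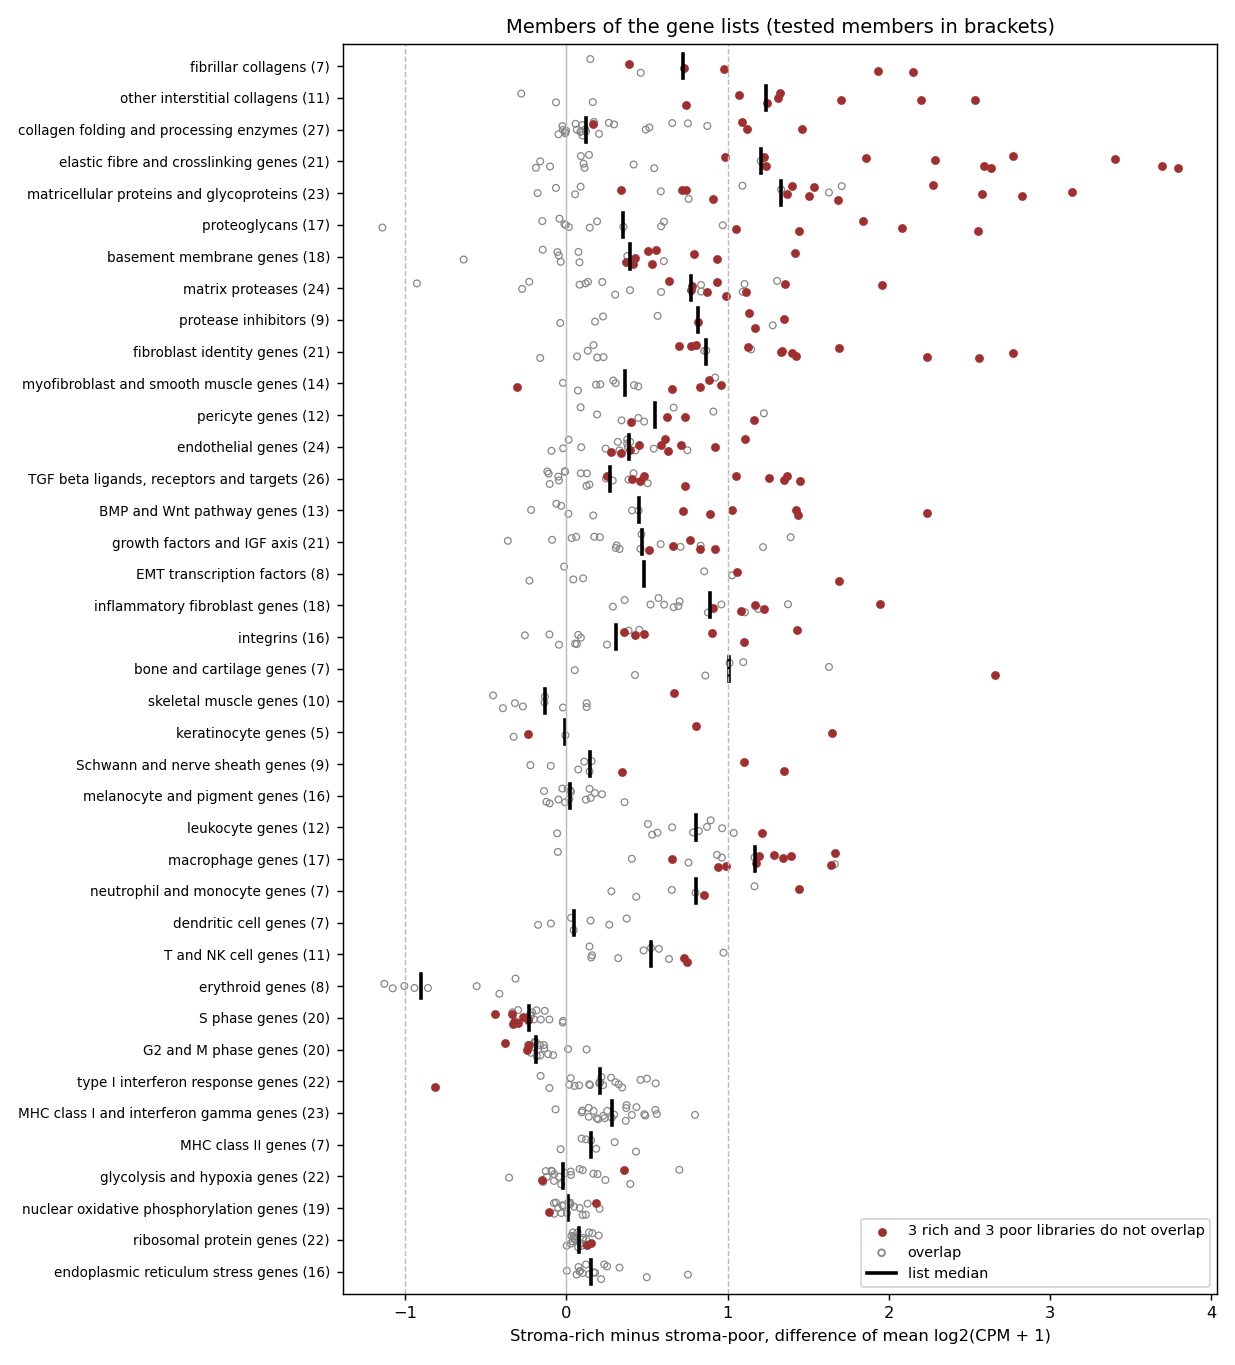
Difference of mean log2(CPM + 1), stroma-rich minus stroma-poor, of each tested gene in the gene lists with at least 5 tested genes; filled points are genes whose 3 and 3 libraries do not overlap, open points overlap, black bars are list medians, and dashed lines mark 2-fold. Elastic fibre (median 1.21), matricellular (1.33) and macrophage (1.17) lists lie to the right, S phase genes (-0.24) slightly to the left, and melanocyte genes (0.02) at 0.

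Within each hairpin label, the library ranked highest was also set against the one ranked lowest. Control replicate 2 was above control replicate 3 in 165 of the 187 higher genes (88.2%, against 49.1% of all genes), and at least 2-fold above in 61 (32.6%, against 2.83% of all genes). Control replicate 3 helped to choose the 187, whereas control replicate 2 did not. Replicate 3 of hairpin 2 was above its replicate 1 in 185, by at least 2-fold in 137 (73.3%, against 4.44%), and here the first library helped to choose the 187 and the second did not. The choice of genes thus favours both counts, and nothing is read from them. For the libraries labelled hairpin 1 the highest and lowest are on opposite sides of the split, so the choice of the 187 fixes the direction; 156 of them (83.4%, against 5.18% of all genes) were at least 2-fold apart there, and again nothing is read from it. Replicates 2 and 1 of hairpin 2 are both outside the split, with scores of 5.69 and 4.98, and there 102 of the 187 were higher (54.5%, against 49.2% of all genes), 24 of them by at least 2-fold (12.8%, against 2.07%). The median difference of the 187 was 0.0996 there, and the number 2-fold lower was not taken. Genes chosen for large differences can be 2-fold apart more often either way, so nothing is read from the 24. In that pair 33 of the 43 matrix genes and 0 of the 8 macrophage and leukocyte genes were higher in replicate 2.

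The study's own comparison, which the ranking does not use, found no gene past the threshold for either hairpin by edgeR. DESeq2 called genes for hairpin 2 only. With edgeR's quasi-likelihood test over all 9 libraries, 0 of 14193 genes (0.0%) had an adjusted p under 0.05 for the libraries labelled hairpin 1 against control and 0 (0.0%) for hairpin 2 against control. At an unadjusted p under 0.05 by the same edgeR test there were 450 and 2046 of 14193 genes. DESeq2 called 0 and 280 genes at an adjusted p under 0.05. For Lox the edgeR log2 fold change was 4.64 (SE 1.77, adjusted p = 0.9999) in the libraries labelled hairpin 1 and 3.24 (SE 1.72, adjusted p = 0.426) with hairpin 2. For Postn it was 2.09 (SE 1.04, adjusted p = 0.9999) and 1.53 (SE 1.03, adjusted p = 0.527) by the same test. The 2 comparisons share the control libraries. Fbxo38 itself differed by -0.10 (SE 0.28, edgeR adjusted p = 0.9999) in the libraries labelled hairpin 1 and by -0.92 (SE 0.29, edgeR adjusted p = 0.254) with hairpin 2. A lower level was thus not detectable for hairpin 1. For hairpin 2 the estimate was lower but did not pass after adjustment over all 14193 genes, which is stricter than a test of this gene alone.

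The number of higher genes depended on single libraries. Without replicate 1 labelled hairpin 1, 149 genes were higher, 130 of them among the 187 (69.5%). Without replicate 3 labelled hairpin 1, the third-ranked library, 543 genes were higher, 186 of the 187 among them, and without replicate 2 labelled hairpin 1 there were 286. With each of the 6 libraries left out in turn, the median difference of the 187 lay between 1.15 and 1.58, against 1.29 with all 6. No sign can change there, because the 187 were chosen for sides that do not overlap. Some genes counted as higher were under 2-fold without 1 library. Without replicate 1 labelled hairpin 1 these included, beside Thbs1, Inhba and Ptgs2 above, Cxcl12 (0.43), Pi16 (0.66), Serpinf1 (0.73), Zeb1 (0.82), Id3 (0.88), Mmp2 (0.90), Itga11 (0.91), Thy1 (0.95), Adamts2 (0.96), Ccl8 (0.96), Wnt5a (0.97) and Htra3 (0.99). Without replicate 3 of hairpin 2 they included Lum (0.64), Sfrp1 (0.82), Csf1r (0.86), Itga11 (0.92), Laptm5 (0.95) and Vwf (0.99). Among the stroma-poor libraries, leaving out control replicate 1 took Id3 (0.89), Lum (0.90) and Zeb1 (0.90) under 2-fold. Without control replicate 3 the same held for Id3 (0.88), Mmp2 (0.91), Vwf (0.91) and Heyl (0.99), and without replicate 2 labelled hairpin 1 for Cxcl12 (0.79). Other list medians also moved by more than 1.5 times. Without replicate 1 labelled hairpin 1, the median of the protease inhibitors was 0.54, of the integrins 0.17 and of the T and NK cell genes 0.33. Without replicate 3 of that label it was 0.23 for the proteoglycans, 0.43 for the TGF-beta list, 1.25 for the leukocyte genes and 0.97 for the T and NK cell genes. Without control replicate 3 it was 0.49 for the matrix proteases, and without replicate 3 of hairpin 2 it was -0.53 for the erythroid genes. Medians within 0.21 of 0 moved by as much or changed sign for most lists.

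Transcript length was also read, since libraries of unlike RNA quality can differ with it. The median longest transcript was 3944 bases over 184 of the 187 genes and 3205 over 14101 tested genes. The rank correlation of the difference with length was -0.038 across these genes, which are no replicates of each other. Taken library by library, the same correlation with each gene's departure from its 9-library mean ran from -0.327 in replicate 1 labelled hairpin 1 to 0.356 in replicate 1 of hairpin 2, and its part in single genes was not tested.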

How the data were processed

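Per the labels' protocols, RNA of tumour tissue was prepared with TRIzol and read on a NovaSeq machine. For each of 9 libraries the authors deposited a table of integer counts by gene symbol, 54532 entries long. The submitters' processing notes list STAR 2.7.0d and Cufflinks beside human builds (GRCh38, hg38), although the symbols are mouse. Which program counted reads, with which annotation and strand setting, is not given in the sources used here, so reads of overlapping genes cannot be told apart. Of 184 higher genes found in GENCODE M21, 47 have exons that overlap another gene. The 102 symbols on several entries were kept apart, and 27 entries are named by a date.

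Genes were filtered with filterByExpr by hairpin group (minimum count 10, total 15), and scaled by TMM in edgeR 4.0.16 (R 4.3.3). With groups of 3, the filter asks for enough counts in at least 3 libraries, whatever their label. A low gene can therefore pass through the 3 stroma-rich libraries alone, which fixes its direction in the split. Hairpin contrasts used a robust quasi-likelihood fit of 3 groups with Benjamini-Hochberg adjustment, with DESeq2 1.42.0 beside it. The split was described, not tested, with a pseudocount of 1 CPM. The scripts were tested on simulated counts. Precision is limited by counting error for genes near 1 CPM, about 15 to 17 counts per library.

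The libraries of the split, the 43 gene lists and the alternatives were chosen with earlier results of these data known. Genes named were Fbxo38 and the 5 ranking genes, the 15 of largest difference each way among genes of at least 5 CPM, and, of each list, the 4 highest by level and every member counted as higher or lower. Other genes named, such as list members that overlapped, were chosen after their values were seen. Some genes that the rule names are not reported here. Promoter windows came from RefSeq (GRCm38.p6), and lengths and overlaps from GENCODE M21. Nothing in the labels gives a batch or date.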

Additional observations from a re-analysis of the deposited data

How the results depend on the processing

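The count of 187 higher and 4 lower genes was 187 and 4 with library totals, 186 and 4 with DESeq2 size factors, and 197 and 4 with no filter on low counts. Ranking the libraries by TMM-scaled CPM, or without Col1a1, put replicate 1 of hairpin 2 in place of replicate 2 labelled hairpin 1 and gave 230 and 3. Ranking without Col1a2, Col3a1, Pdgfra or Pdgfrb kept the 6 libraries. The counts moved by more than 1.5 times with a pseudocount of 0.25 CPM (356 and 16) or 5 CPM (54 and 0), with a mean of at least 5 CPM (83 and 1), with no minimum fold (906 and 774), and with 2 against 2 libraries (621 and 28) or 4 against 4 (68 and 1). Leaving out each library in turn gave 149 to 543 higher and 6 to 16 lower genes. A smaller side makes it easier for groups not to overlap. Of the values for single genes under these alternatives 4270 moved by less than the pooled SD and 158 by more. For list medians, with their own pooled SD, the counts were 713 and 25. That SD is taken within sides chosen by rank, whose libraries carry mixed labels and are not replicates. It is wide for some genes, such as 1.42 for Lox. No value changed sign after being counted as higher or lower. The macrophage median of 1.17 was 0.47 with 4 against 4 libraries, and the erythroid (0.73), MHC class I (-0.34), MHC class II (-0.50) and type I interferon (-0.07) medians then had the other sign. Without replicate 1 labelled hairpin 1 the type I interferon and MHC class II medians were each -0.10.

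For the hairpins against control, edgeR called 0 and 0 genes, also with DESeq2 size factors and with the replicate block. Nothing in the labels says that replicate numbers pair the samples. Same-numbered libraries deviated with correlations of -0.409 to 0.138 and differently numbered ones with -0.405 to 0.513. With so few libraries these values cannot decide whether a number marks a shared batch. With no filter the counts were 0 and 4, by DESeq2 0 and 280, and leaving out each library 0 to 0 and 0 to 2. Depth limits genes under about 1 CPM, where a few counts decide the difference.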

Other observations

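Several higher genes lie outside the lists and are named after their values were seen. Imprinted noncoding RNAs were among them: H19 stood at 9.11, 16.2 and 3.91 CPM in the stroma-rich libraries, at 0.774, 0.261 and 2.26 CPM in the middle and at 1.28, 1.01 and 2.56 CPM in the stroma-poor ones. Meg3 stood at 4.14, 0.669 and 1.26, then 0.774, 1.18 and 1.19, then 0.0672, 0.298 and 0.297 CPM, and Rian, from the same imprinted cluster as Meg3, at 7.81, 2.43 and 4.23, then 4.41, 3.07 and 1.94, then 0.806, 0.954 and 1.25 CPM. H19 was highest in replicate 3 of hairpin 2, while Meg3 and Rian were highest in replicate 1 labelled hairpin 1. Without that library the difference of Meg3 was 0.68, against 1.14 with it.

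Growth factor receptors were among the 187 as well. Fgfr1 stood at 26.1, 16.3 and 8.20 against 7.73, 4.53 and 3.68 CPM and Egfr at 4.32, 2.68 and 1.07 against 0.605, 0.238 and 0.475 CPM. The Egfr difference of 1.26 was 0.95 without replicate 1 labelled hairpin 1. Cdh11, a cadherin of mesenchymal cells, stood at 7.98, 7.18 and 2.21 against 0.874, 0.536 and 0.416 CPM, with replicate 2 of hairpin 2 at 0.477 CPM and so within the stroma-poor range. Ccbe1, a secreted factor of lymphatic growth, stood at 11.5, 4.69 and 0.757 against 0.336, 0.0596 and 0 CPM. Cxcr4, the receptor for the product of Cxcl12, stood at 11.7, 13.5 and 9.65 against 8.47, 3.34 and 3.51 CPM, with 13.6 CPM in replicate 2 of hairpin 2. The Cxcr4 difference of 1.14 was 0.94 without control replicate 1 and 0.97 without control replicate 3. On the lower side, Lmtk3 stood at 3.61, 1.46 and 1.70 against 5.78, 5.37 and 6.12 CPM and Gm6087 at 1.42, 1.64 and 1.45 against 5.64, 6.80 and 4.10 CPM. The Lmtk3 difference of -1.11 was -0.94 without replicate 3 of hairpin 2, and the Fam19a5 difference of -1.10 was -0.99 without replicate 1 labelled hairpin 1.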
